A study of Homo sapiens with 9 samples.

Results

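Messenger RNA of Jurkat Clone E6-1, a T-cell leukaemia line long used to study receptor signalling, was compared between 3 libraries of cells stimulated for 5 h and 3 libraries of non-activated cells (0 h). Stimulation was through plate-bound antibody to CD3 (coated at 10 µg/mL) together with soluble antibody to CD28 (5 µg/mL). These 6 libraries are part of a series of 9, whose other 3 libraries come from the same line after 12 h. Those 3 entered the filter on low counts, the scaling and the estimate of the spread, but not the comparison itself. All genes that passed the filter were compared, which left 12036 of the 19569 genes in the deposited table (11897 with only the 6 libraries compared). The series text speaks of biological replicates without saying whether cultures were separate, so the p-values reflect only library-to-library spread, part of which may be technical. No unstimulated culture held for 5 h was analysed here, so the antibodies, the plate and the time in culture cannot be told apart.

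Antibody to CD3 engages the T-cell receptor complex and antibody to CD28 supplies costimulation. The receptor signals through calcium and the phosphatase calcineurin to NFAT factors, through diacylglycerol to protein kinase C, NF-κB and the Ras and MAP kinase cascade, and through PI3 kinase. The first genes to respond are transcribed without new protein synthesis and encode transcription factors and inhibitors of the same cascades, and genes of cytokines, receptors and metabolism follow over the next hours. As one leukaemic line that is already dividing, Jurkat cells are a limited model of a resting T cell.

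Depth was similar in both groups, with 6270320 to 7805119 counts per library at 0 h and 6552491 to 7615112 at 5 h. Levels are given as CPM, counts scaled to 1000000 per library after TMM scaling, each mean as ± SD over 3 libraries, and each log2 fold change as 5 h over 0 h with its SE. Summed T-lineage markers (19 genes, each with counts) ran from 7975 to 9189 CPM at 0 h and from 9546 to 10805 CPM at 5 h, although 8 of the 19 were called lower (6 by at least 2-fold) and 6 higher, with a median log2 fold change of 0.00. CD8 and natural killer markers summed to 29.3 to 37.8 CPM and 32.6 to 38.5 CPM, with 2 of 5 tested genes at least 2-fold lower and 1 at least 2-fold higher. Myeloid, erythroid and platelet, and epithelial, fibroblast and endothelial markers each summed to at most 12.8 CPM in every library. B-cell markers summed to 213 to 267 CPM at 0 h and 117 to 146 CPM at 5 h, nearly all of it CD79A, CR2 and BLK, while CD22 had no count in any of the 6 libraries. The part of these other lineages' transcripts in the results was not tested. In a bulk sample, fewer cells that express a gene and less RNA of it per cell cannot be told apart.

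Base composition moved with the time point and with single libraries. Genes whose longest coding transcript is over 60% G+C (1783 genes) were called higher in 10.7% and lower in 39.4% of cases, with a median log2 fold change of -0.30. Those under 40% G+C (1879 genes) were called higher in 32.7% and lower in 14.4%, with a median of 0.13. The libraries 0 h replicate 3 and 5 h replicate 1 stood farthest apart. For genes of 55% G+C and over, the median deviation from the gene mean on the log2 scale was 0.17 and -0.24 in these 2 libraries, against 0.05 and 0.06 in the other 0 h libraries and -0.03 and -0.06 in the other 5 h libraries. Counts of calls are therefore also given without these 2 libraries and with an offset fitted on G+C content and transcript length, both chosen after seeing the data. Whether the trend is technical was not tested.

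**Figure D1:**
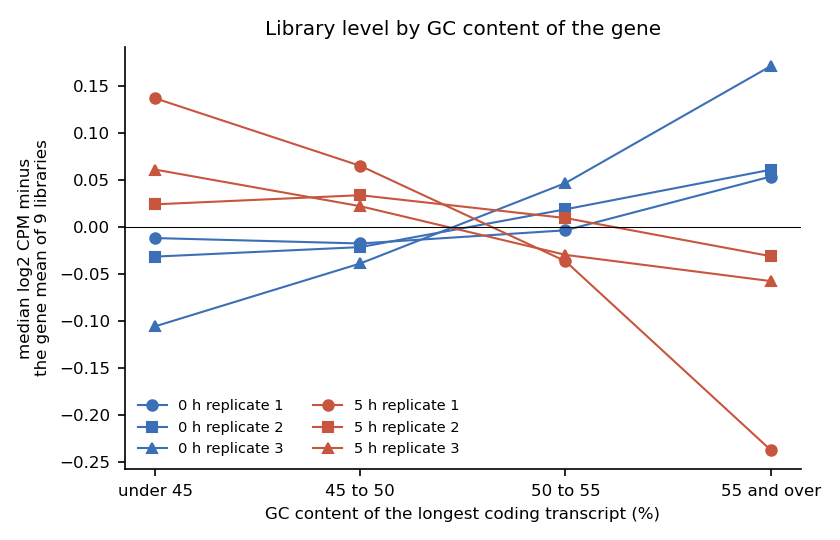
Median log2 CPM minus the gene's mean over the 9 libraries (vertical axis) for 4 classes of G+C content of the longest coding transcript (horizontal axis, %), with a line for each of the 6 libraries. All 0 h lines end above all 5 h lines at high G+C, and 0 h replicate 3 (0.17) and 5 h replicate 1 (-0.24) lie at the extremes.

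About as many genes rose as fell, with more falls than rises at 2-fold but mostly rises at 8-fold or more. In the edgeR quasi-likelihood test with Benjamini-Hochberg adjustment, 5985 of 12036 genes were called at an adjusted p under 0.05 (49.7%), 3001 higher (24.9%) and 2984 lower (24.8%). In 3553 genes (29.5%) every 5 h library lay above every 0 h library, and in 3501 (29.1%) every one lay below. Most calls were small, with a median log2 fold change of 0.55 among genes that rose and -0.65 among those that fell, and 2881 called genes differed by under 1.5-fold. At least 2-fold changes were called in 663 genes upward (5.51%) and 774 downward (6.43%), and a test of the size itself (edgeR glmTreat) placed 763 genes over 1.5-fold higher (6.34%) and 808 over 1.5-fold lower (6.71%). At 8-fold or more there were 141 rises against 18 falls, and at 16-fold or more 88 against 4. These rises include genes with few or no counts at 0 h, such as IL2RA, which passed the filter only through stimulated libraries. For such genes the fitted fold is no measure of size. When libraries were scaled by their totals alone, 36.1% of calls were upward in place of 50.1% (2200 higher and 3899 lower), since that scaling moved the median of all genes to -0.12 on the log2 scale. All changes given here are relative to the TMM scaling, under which the median gene had a log2 fold change of 0.00. Without the 2 libraries named above 4465 genes were called, and with the G+C and length offset 6329.

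**Figure D2:**
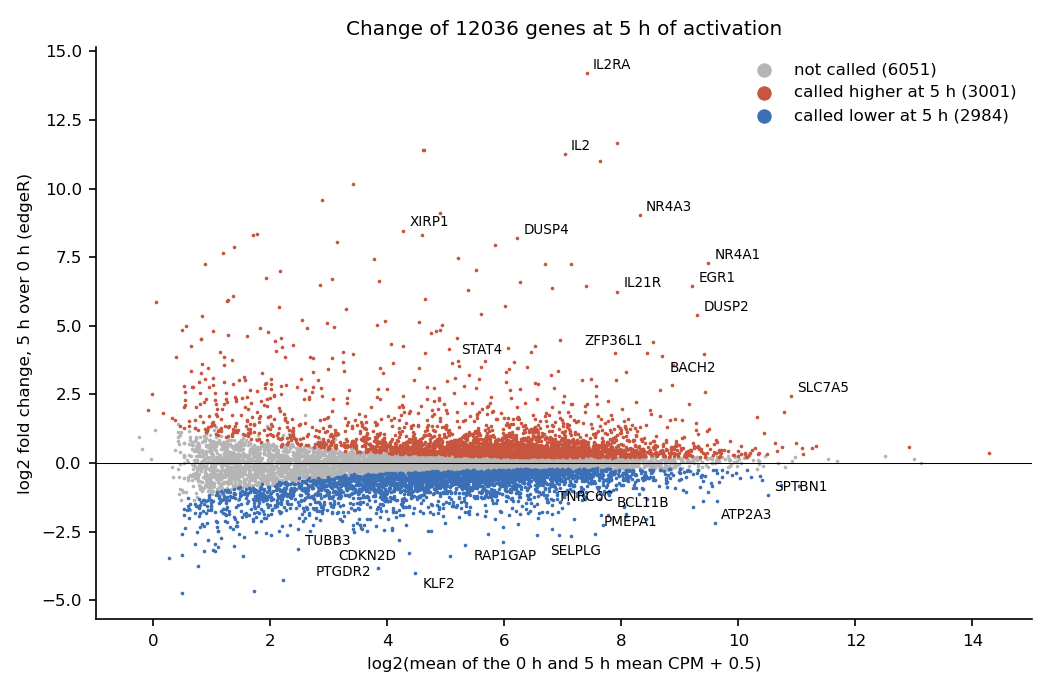
Log2 fold change at 5 h over 0 h (vertical axis, edgeR) against the mean level of both groups (horizontal axis, log2 of CPM plus 0.5) for the 12036 genes tested, coloured by call, with 24 genes labelled. Rises reach much farther from 0 than falls, with 88 genes at least 16-fold higher and 4 at least 16-fold lower. Fitted values of genes without a count at 0 h, such as IL2RA, depend on the fit and are no measure of size.

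The largest gains and losses of RNA were in abundant genes. The 10 genes with the largest gain in mean CPM held 2.86% to 3.07% of all counts in the 0 h libraries and 4.33% to 4.95% in the 5 h libraries. Besides the mitochondrial gene MT-CO1, whose call was lost in 9 of 16 alternatives (0.34, 0.31, 0.24 and 0.35 on the log2 scale without 0 h replicate 1, 0 h replicate 2, 5 h replicate 1 or 5 h replicate 2), they included EEF1A1 (a translation elongation factor, 6239.8 to 9300.3 CPM), LCP1 (the actin bundler L-plastin, 2052 to 3119 CPM), SLC7A5, HSP90B1, HSPA5, NR4A1, DUSP2 and EGR1. The 10 genes with the largest loss held 1.57% to 1.66% at 0 h and 0.701% to 0.774% at 5 h. They included the tubulins TUBB (2716 to 1509.6 CPM) and TUBA1B (2161 to 1234 CPM), the spectrin SPTBN1 (2016 to 903 CPM), the calcium pumps ATP2A3 and ATP2B4, the purine enzyme ADA (895 to 294 CPM), the nucleoporin NUP210 (957 to 463 CPM) and the integrin ITGA4 (1631 to 1069.6 CPM). The 100 most abundant genes held 16.6% ± 0.391 of counts at 0 h and 17.9% ± 0.532 at 5 h (exact two-sided permutation p = 0.1, the smallest that 3 against 3 libraries allow). The number of genes at 1 CPM or more was 12082 ± 37.0 and 12057 ± 7 (exact permutation p = 0.4). There were 10 genes without a single count at 0 h that held at least 10 counts in each 5 h library, and no gene had at least 10 counts in each 0 h library and none at 5 h. IL2RA was the highest of them at 346, 331 and 339.7 CPM, at least 2561-fold above the 0 h floor of 3 counts over the group (0.132 CPM). The lowest was CGA, the glycoprotein hormone alpha chain, at 2.41, 2.84 and 2.82 CPM and at least 20.4-fold higher. ENTPD2, an enzyme that breaks down extracellular ATP, was at least 44.1-fold higher, the sialidase gene NEU4 at least 31.9-fold and TNS3, a tensin that links integrins to actin, at least 27.4-fold.

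EGR1 and NFKBIA rose strongly, and their promoters are shown because each gene is known to be controlled by a pathway that the receptor engages. EGR1, a zinc-finger factor induced through the MAP kinase cascade and serum response factor, stood at 13.6, 14.9 and 12.3 CPM at 0 h and 1202, 1166 and 1151 CPM at 5 h (log2 fold change 6.43 ± 0.12, edgeR adjusted p = 1.04e-19). NFKBIA, the inhibitor that retains NF-κB in the cytoplasm and is itself an NF-κB target, stood at 22.8, 21.1 and 20.5 CPM at 0 h and 166, 159 and 159 CPM at 5 h (log2 fold change 2.91 ± 0.10, edgeR adjusted p = 2.17e-15). For both genes the lowest 5 h library lay far above the highest 0 h library. The 250 bases before the RefSeq start (GRCh38.p14) are chr5:138465229-138465478 on the plus strand for EGR1 and chr14:35404750-35404999 on the minus strand for NFKBIA, printed 5′ to 3′ in the direction of the gene. Capitals mark matches to the motifs searched, which in EGR1 are, in order, an EGR motif, a κB motif and a pair of CArG boxes, and in NFKBIA a κB motif.

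EGR1: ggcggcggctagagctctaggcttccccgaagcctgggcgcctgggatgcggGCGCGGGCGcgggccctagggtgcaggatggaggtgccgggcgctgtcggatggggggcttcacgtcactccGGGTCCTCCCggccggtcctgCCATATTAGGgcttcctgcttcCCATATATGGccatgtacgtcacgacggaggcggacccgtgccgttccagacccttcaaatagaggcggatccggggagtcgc
NFKBIA: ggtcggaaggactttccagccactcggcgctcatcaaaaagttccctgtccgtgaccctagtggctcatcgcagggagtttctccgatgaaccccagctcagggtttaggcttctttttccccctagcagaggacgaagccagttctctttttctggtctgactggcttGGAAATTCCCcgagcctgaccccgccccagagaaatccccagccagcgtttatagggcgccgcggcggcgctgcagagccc

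The CArG boxes, the motif of serum response factor, cover bases 105 to 96 (CCATATTAGG) and 83 to 74 (CCATATATGG) before the EGR1 start. The EGR motif lies at bases 198 to 190, and the κB match of EGR1 (GGGTCCTCCC) at bases 126 to 117. The κB match of NFKBIA (GGAAATTCCC) lies at bases 81 to 72 and fits the pattern when read on the opposite strand. None of these matches overlap. The windows of NR4A1 and IL2 held none of the letters searched. Over 9784 tested genes with a RefSeq window, both strands were searched for the CRE motif TGACGTCA, the AP-1 motif TGANTCA, a loose κB motif (GGG and CC with any 5 bases between them), the EGR motif GCGNGGGCG, the E2F motif TTTCGCGC, the E-box CACGTG and the CArG box. The AP-1 motif stood in 7.91% of windows of genes at least 2-fold higher (40 of 506), in 4.78% of those at least 2-fold lower (28 of 586) and in 3.74% of all windows. The CRE motif stood in 3.56%, 0.853% and 2.98%, and the CArG box in 1.38%, 0.683% and 1.01%. The κB motif was in 69.8%, 78.2% and 69.5%, the EGR motif in 15.8%, 18.4% and 13.8%, and the E-box in 6.92%, 7.68% and 8.97%. The E2F motif stood in 0.395%, 1.02% and 0.869%. These shares are descriptions without a test, and a match is not a shown binding site.

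The MAP kinase cascade held genes of both directions, and most of its phosphatases rose. Of 40 cascade genes tested, 17 rose (42.5%, against 24.9% of all genes) and 10 fell (25%, against 24.8%, and 6 genes without the 2 libraries that stood apart), and the median log2 fold change was 0.19. MAP2K3, a kinase that activates p38, stood at 35.4, 33.6 and 34.5 CPM at 0 h and 274, 286 and 292 CPM at 5 h (log2 fold change 3.04 ± 0.093, edgeR adjusted p = 2.15e-16). The related kinase MAP2K6 went the other way, from 26.8 ± 4.998 to 7.72 ± 0.231 CPM (-1.79 on the log2 scale). The Ras-family GTPase RRAS2 rose from 13.9 to 49.5 CPM and the ERK5 gene MAPK7 fell from 19.9 to 12.03 CPM. Of 9 MAP kinase phosphatases, 6 rose and 2 fell (DUSP1 and DUSP7), with a median of 1.23. DUSP2, which acts on nuclear ERK and p38, stood at 25.2, 30.9 and 31.96 CPM at 0 h and 1151, 1295 and 1222 CPM at 5 h (log2 fold change 5.38 ± 0.12, edgeR adjusted p = 1.08e-18). DUSP5 rose from 2.68 to 222 CPM, DUSP10 from 7.03 to 28.7 CPM and DUSP16 from 16.2 to 29.6 CPM, while DUSP7 fell from 45.2 to 28 CPM. DUSP1, a standard early gene in other cells, fell from 13.4 ± 0.923 to 9.71 ± 1.45 CPM (-0.46 on the log2 scale). That call was lost in 6 of 16 alternatives, among them without 0 h replicate 2 (-0.41), 0 h replicate 3 (-0.48), 5 h replicate 1 (-0.42) or 5 h replicate 3 (-0.38). Among 16 Sprouty, SPRED and Ras GTPase-activating proteins, which restrain Ras, 7 rose and 3 fell, with a median of 0.28. SPRY1 rose from 2.73 to 26.7 CPM and SPRY4 from 11.4 to 50.3 CPM, while DAB2IP fell from 4.61 to 1.16 CPM.

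Of 36 genes of calcium entry, calcineurin and NFAT, 12 rose and 12 fell (33.3% each, against 24.9% and 24.8% of all genes), with a median of -0.08. ATP2A3, the pump that returns calcium to the endoplasmic reticulum in blood cells, stood at 1169.7, 1216 and 1429.5 CPM at 0 h and 232, 311 and 300.3 CPM at 5 h (log2 fold change -2.18 ± 0.12, edgeR adjusted p = 4.43e-12). ATP2B4, which exports calcium across the plasma membrane, fell from 1146 ± 39.2 to 444 ± 10.1 CPM and the channel subunit ORAI2 from 76.9 ± 3.61 to 34.2 ± 3.16 CPM. All 5 h libraries lay below all 0 h libraries for these 3 genes. NFATC1, the inducible NFAT factor, rose from 41.3 ± 5.08 to 113 ± 5.57 CPM, the scaffold HOMER1 from 32.3 to 101 CPM and the calcium-dependent kinase CAMK2D from 22.4 to 69.2 CPM. Of 24 genes of the diacylglycerol and protein kinase C branch, 11 rose (45.8%) and 6 fell (25%, a share close to that of all genes), with a median of 0.28. PRKCE, a calcium-independent protein kinase C, stood at 16.8, 15.1 and 12.4 CPM at 0 h and 123, 106 and 117 CPM at 5 h (log2 fold change 2.96 ± 0.12, edgeR adjusted p = 1.90e-14). The Ras exchange factor RASGRP1, which responds to diacylglycerol, fell from 213 ± 7.63 to 106 ± 3.76 CPM. Its relative RASGRP2, a Rap exchange factor, fell from 71.9 ± 5.83 to 19.97 ± 1.46 CPM. DGKA, which removes diacylglycerol, rose from 172 to 293 CPM. PI3 kinase genes changed little, with 3 of 28 higher, 8 lower, none by 2-fold and a median of -0.01. INPP4A, an inositol lipid phosphatase, fell from 203 to 112 CPM and the catalytic subunit PIK3CA rose from 65.8 to 103 CPM.

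Most NF-κB genes and most STAT and IRF factors rose. Of 21 NF-κB subunits, kinases and inhibitors, 16 were called higher and the other 5 were not called in the edgeR test. Their median log2 fold change was 0.64. In several alternatives 1 was called lower, among them with only the 6 libraries compared, with the G+C and length offset and without 5 h replicate 3. When libraries were scaled by totals alone, 2 were called lower. RELB, a subunit of the slower non-canonical arm, stood at 2.56, 0.897 and 2.81 CPM at 0 h and 79.8, 100.3 and 102 CPM at 5 h. The adaptor TRAF1 stood at 7.29, 9.72 and 10 CPM at 0 h and 174, 179.6 and 166 CPM at 5 h. NFKBID, a nuclear IκB protein, rose from 8.13 to 74.8 CPM. In each of these genes the groups were widely apart. Of 17 interferon regulatory and STAT factors, 14 rose and the other 3 were not called, with a median of 1.17, and with the G+C and length offset all 17 were called higher. STAT4, which carries interleukin-12 signals, stood at 4.73, 4.04 and 6.099 CPM at 0 h and 70.8, 62.8 and 55.9 CPM at 5 h (log2 fold change 3.65 ± 0.17, edgeR adjusted p = 1.84e-13), and its groups did not overlap. Both lists are chosen among genes known to respond to T-cell activation, so their direction is not independent evidence.

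**Figure D3:**
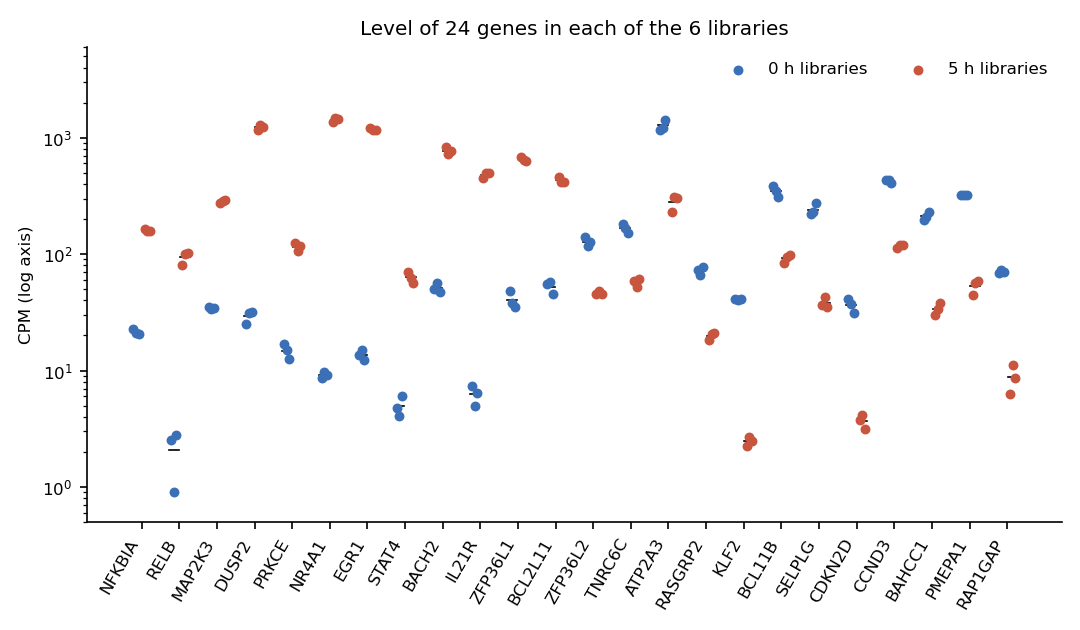
CPM on a log axis of 24 genes in the 3 libraries at 0 h (blue) and the 3 libraries at 5 h (red), with black bars at the group means. The groups do not overlap for any gene shown, from NFKBIA, RELB and MAP2K3 among the risers to PMEPA1 and RAP1GAP among the fallers. The genes were picked for display, some under a rule that required no overlap. Of all genes tested, 29.5% had every 5 h library above and 29.1% every one below.

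Serum response factor and EGR genes mostly rose, and other transcription factor families held genes of both directions. Of 17 serum response factor and EGR genes, 13 rose and the other 4 were not called (2 fell with the G+C and length offset), with a median of 1.47. EGR3 stood at 1.02, 1.196 and 2.32 CPM at 0 h and 134, 164 and 155 CPM at 5 h, and all of its 5 h libraries lay far above 0 h. Of 25 AP-1, ATF and CREB factors, 13 rose and 3 fell, with a median of 0.26. JUNB rose from 23.1 ± 1.43 to 79.8 ± 14.1 CPM and FOSL2 from 9.93 ± 2.93 to 34.9 ± 2.53 CPM, both AP-1 subunits, and FOS, the subunit known for a brief early peak, rose from 0.999 ± 0.219 to 16.99 ± 2.43 CPM. CREBZF fell from 169.5 to 121 CPM and ATF6B, a sensor of endoplasmic reticulum stress, from 123 to 80.3 CPM. Of 23 nuclear receptors, 11 rose and 4 fell (7 fell with scaling by totals alone), with a median of 0.19. NR4A1, an orphan receptor induced by T-cell receptor signals, stood at 8.69, 9.72 and 9.15 CPM at 0 h and 1349.6, 1478 and 1451 CPM at 5 h, while the fatty-acid receptor PPARA fell from 56.7 ± 3.46 to 21.6 ± 1.74 CPM and the thyroid hormone receptor THRA from 20.5 to 8.37 CPM. Of 9 BACH, MAF and NRF factors, 5 rose and 3 fell, with a median of 0.48. BACH2, a repressor that holds back effector differentiation, stood at 50.5, 56.5 and 46.96 CPM at 0 h and 823, 725 and 771 CPM at 5 h (log2 fold change 3.92 ± 0.10, edgeR adjusted p = 1.49e-17). NFE2L2, the oxidative stress factor NRF2, rose from 60.9 to 172 CPM, while its inhibitor KEAP1 fell from 60.9 to 40.8 CPM.

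Kruppel-like and SP factors were among the groups that mostly fell, with 9 of 16 lower, 2 higher and a median of -0.37. KLF2, a factor of quiescent and recirculating T cells, stood at 40.8, 40.5 and 40.7 CPM at 0 h and 2.25, 2.703 and 2.51 CPM at 5 h (log2 fold change -4.02 ± 0.18, edgeR adjusted p = 8.07e-14). KLF10, a target of TGF-β signalling, went the other way at 25.9, 20.03 and 20.98 CPM at 0 h and 117, 117 and 114 CPM at 5 h. Factors of the T lineage changed in most cases, with 20 of 36 higher and 11 lower (55.6% and 30.6%, against 24.9% and 24.8% of all genes) and a median of 0.38. TBX21, the T-bet factor of type 1 helper cells, rose from 0.804 ± 0.4004 to 26.5 ± 2.004 CPM, EOMES, its relative in cytotoxic cells, from 6.88 ± 0.2004 to 126 ± 4.8 CPM, and BCL6, a factor of follicular helper cells, from 3.46 ± 0.663 to 61.7 ± 3.62 CPM. BCL11B, which maintains T-cell identity, stood at 384, 346 and 306 CPM at 0 h and 83.6, 95.3 and 99.02 CPM at 5 h (log2 fold change -1.90 ± 0.11, edgeR adjusted p = 7.19e-12), and TOX2 fell from 17.6 to 4.26 CPM. Every 5 h library of BCL11B lay far below every 0 h library. In the MYC, MAX and MXD network 2 of 12 rose and 5 fell (3 without 0 h replicate 1 or without 5 h replicate 1), with a median of 0.07. MYC, a driver of growth, rose from 211 ± 10.8 to 276 ± 13.7 CPM (log2 fold change 0.38 ± 0.086, edgeR adjusted p = 8.94e-04), while MXD4, an antagonist, fell from 32.2 to 14.3 CPM.

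Chromatin genes moved little, with single exceptions. Of 39 histone lysine methylases and demethylases, 17 rose (43.6%) and 8 fell (20.5%), against 24.9% and 24.8% of all genes. In each direction 1 changed by 2-fold or more, and the median was 0.12. KDM6B, a demethylase of H3K27 induced by many stimuli, stood at 107, 109.9 and 121 CPM at 0 h and 344, 339 and 357 CPM at 5 h (log2 fold change 1.62 ± 0.097, edgeR adjusted p = 1.78e-11). KDM5B rose from 157 to 287 CPM, while the H3K4 methylase SETD1B fell from 104 to 48.8 CPM and the H3K9 methylase EHMT2 from 82.03 to 51.4 CPM. Of 37 Polycomb and SWI/SNF genes, 12 rose (7 with scaling by totals alone) and 6 fell (3 without 0 h replicate 3 or without 5 h replicate 1), with a median of 0.05. JARID2, a Polycomb cofactor, rose from 252 ± 10.4 to 629 ± 16.9 CPM and PHC1, a Polycomb subunit, from 61.99 to 128 CPM. Of 407 tested genes named ZNF and a number, most of them zinc-finger repressors, 109 rose (26.8%) and 47 fell (11.5%), with a median of 0.12. Without the 2 libraries that stood apart 68 rose and 39 fell, with the G+C and length offset 89 rose and 68 fell, and with scaling by totals alone 75 rose and 75 fell. ZNF827 rose from 6.404 to 16.2 CPM, while ZNF480 fell from 65.6 ± 3.46 to 17.97 ± 0.248 CPM and ZNF367 from 63.5 ± 6.33 to 20.8 ± 2.74 CPM.

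**Figure D4:**
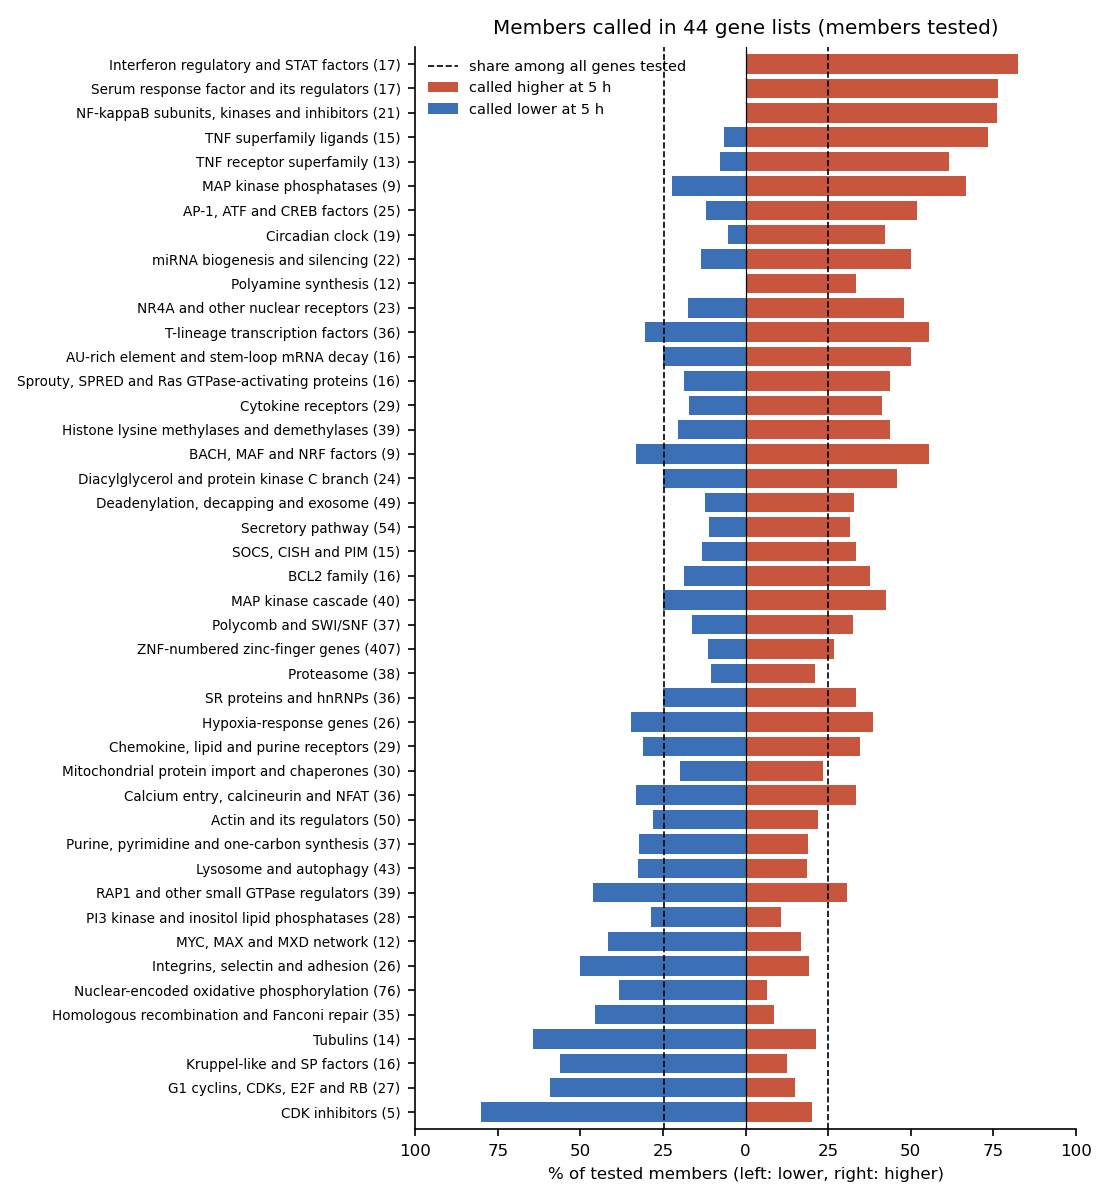
Share of tested members called higher (red, to the right) and lower (blue, to the left) at 5 h for 44 gene lists, ordered by the difference, with the number of members tested in brackets and dashed lines at the shares among all genes tested (24.9% and 24.8%). Interferon regulatory and STAT factors, serum response factor genes and NF-κB genes have no member called lower, and CDK inhibitors and G1 genes lie at the other end. In some alternatives NF-κB and serum response factor genes did have members called lower.

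Regulators of mRNA stability included a pair of close relatives that moved in opposite directions. Of 16 genes of decay through AU-rich elements and stem-loops, 8 rose and 4 fell (2 without 0 h replicate 1), with a median of 0.36. ZFP36L1, which binds AU-rich elements and recruits deadenylases, stood at 48.1, 37.8 and 35.4 CPM at 0 h and 675, 644 and 635 CPM at 5 h (log2 fold change 4.01 ± 0.12, edgeR adjusted p = 7.38e-17). Its paralogue ZFP36L2 stood at 139, 118 and 127 CPM at 0 h and 45.7, 48.1 and 45.1 CPM at 5 h (log2 fold change -1.46 ± 0.10, edgeR adjusted p = 1.46e-10). The groups did not overlap for either gene. ZC3H12A, the endonuclease Regnase-1 that cleaves cytokine and receptor mRNAs, rose from 9.92 ± 1.42 to 68.7 ± 4.61 CPM. Of 49 genes of deadenylation, decapping and the exosome, 16 rose and 6 fell (3 without 0 h replicate 1 or without 5 h replicate 3), with a median of 0.12. BTG1 rose from 45.6 ± 5.65 to 137 ± 13.1 CPM and BTG2 from 20.04 to 41.7 CPM, both antiproliferative partners of deadenylases, XRN1, the cytoplasmic 5′ exonuclease, rose from 71.9 to 125 CPM, and the surveillance helicase UPF1 fell from 184 to 141 CPM.

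The miRNA machinery rose in 11 of 22 tested genes and fell in 3, with a median of 0.24. Without the 2 libraries that stood apart 7 rose and 3 fell, and with the G+C and length offset 5 fell. AGO2, the Argonaute that can cleave its targets, stood at 174, 171 and 169.6 CPM at 0 h and 293, 267 and 270.3 CPM at 5 h (log2 fold change 0.69 ± 0.081, edgeR adjusted p = 5.17e-07). TNRC6C, a scaffold that links Argonaute to deadenylases, stood at 181, 166 and 152 CPM at 0 h and 58.6, 51.9 and 61.4 CPM at 5 h (log2 fold change -1.54 ± 0.10, edgeR adjusted p = 9.35e-11), and DGCR8, the partner of the nuclear processing enzyme, fell from 118 ± 8.48 to 71.2 ± 7.32 CPM. The RNA editors ADARB1 and ADAR rose from 75.8 ± 0.278 to 197 ± 7.87 CPM and from 580.3 ± 15.4 to 946 ± 35.96 CPM. Among 36 SR proteins and hnRNPs, which control splicing, 12 rose (33.3%) and 9 fell (25%), against 24.9% and 24.8% of all genes. None changed by 2-fold, and the median was -0.02. The split of higher and lower depended on the processing. It was 5 and 7 without the 2 libraries that stood apart, 10 and 14 with the G+C and length offset, and 7 and 14 with scaling by totals alone. HNRNPK rose from 769 to 1034 CPM, while SRSF3 fell from 424 to 287 CPM and HNRNPM from 338 to 214 CPM.

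Most TNF-family ligands and receptors tested rose. Of 15 ligands of the TNF superfamily, 11 rose (73.3%, against 24.9% of all genes), 1 fell (6.67%, against 24.8%) and 3 were not called, at a median of 2.03. The ligand that fell, TNFSF4, lost its call without 0 h replicate 1, 0 h replicate 2 or 5 h replicate 1. Of 13 receptors 8 rose, 1 fell (2 without 0 h replicate 1, without 5 h replicate 2 or with scaling by totals alone) and 4 were not called, with a median of 0.54. LTB, a subunit of membrane lymphotoxin, rose from 0.752 ± 0.322 to 11.1 ± 2.27 CPM and TNFSF14, the ligand LIGHT, from 0.284 ± 0.3 to 27.7 ± 3.86 CPM. Ligands this low at 0 h passed the filter only through stimulated libraries, so the ligands' share and median partly follow from the filter. Run on the authors' log2 values, which hold only genes counted in all 9 libraries, limma tested 13 ligands. Of these 10 rose and 1 fell, with a median of 1.18. The receptor TNFRSF1B (TNF receptor 2) stood at 2.301, 0.897 and 2.44 CPM at 0 h and 49.2, 56.2 and 57.5 CPM at 5 h, without overlap of the groups. TNFRSF4 (the costimulatory receptor OX40) stood at 2.43, 1.196 and 1.95 CPM at 0 h and 34.7, 62.4 and 55.8 CPM at 5 h. The 5 h libraries of TNFRSF4 differed widely among themselves but all lay above 0 h. TNFRSF14, the receptor of LIGHT, fell from 16.3 ± 2.53 to 8.64 ± 1.76 CPM.

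Receptors for cytokines, chemokines and lipids moved in both directions. Of 29 cytokine receptor genes, 12 rose and 5 fell, with a median of 0.17, the same with IL2RA at its lower bound. IL21R stood at 7.42, 4.93 and 6.46 CPM at 0 h and 446, 496 and 502 CPM at 5 h (log2 fold change 6.25 ± 0.14, edgeR adjusted p = 1.49e-18) and IL15RA rose from 0.746 to 5.82 CPM, while IL17RA fell from 237 ± 18.3 to 95.01 ± 7.25 CPM and TGFBR1 from 90.1 ± 3.401 to 46.5 ± 1.09 CPM. Of 15 SOCS, CISH and PIM genes, 5 rose (3 without 0 h replicate 3, without 5 h replicate 1 or with scaling by totals alone) and 2 fell, with a median of 0.15. SOCS1, an inhibitor of JAK kinases, rose from 4.67 ± 0.0818 to 38.1 ± 3.52 CPM and the kinase PIM3 from 46.8 ± 3.86 to 330.0 ± 23.9 CPM, while its relative PIM1 fell from 10.7 ± 1.77 to 5.28 ± 2.05 CPM. Of 29 chemokine, lipid and purine receptors, 10 rose (34.5%) and 9 fell (31%), against 24.9% and 24.8% of all genes. In each direction 7 changed by at least 2-fold, and the median was -0.05. PTGER4, a prostaglandin E2 receptor, rose from 149.9 ± 6.66 to 571 ± 47.6 CPM and ADORA2B, an adenosine receptor, from 5.74 ± 0.881 to 31.6 ± 0.978 CPM. PTGDR2, a prostaglandin D2 receptor, stood at 27.4, 23.02 and 27.3 CPM at 0 h and 1.05, 1.76 and 2.66 CPM at 5 h, and CXCR3 fell from 17.1 ± 0.843 to 3.22 ± 0.822 CPM.

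More adhesion and Rap1 genes fell than rose. Of 26 integrins, selectins and adhesion receptors, 13 fell and 5 rose, with a median of -0.30. SELPLG, the selectin ligand PSGL-1, stood at 219, 231 and 274 CPM at 0 h and 36.8, 42.8 and 35.4 CPM at 5 h (log2 fold change -2.65 ± 0.11, edgeR adjusted p = 5.25e-14). ITGA6 fell from 102 ± 7.24 to 39.1 ± 3.16 CPM and ITGB7, the beta chain of gut-homing integrins, from 13.2 ± 0.817 to 4.58 ± 1.11 CPM, while ITGAE, its partner in epithelial retention, rose from 17.9 ± 1.94 to 45.3 ± 4.55 CPM. CD44, the hyaluronan receptor, stood at 0.128, 0.299 and 0.366 CPM at 0 h and 9.17, 11.2 and 10.7 CPM at 5 h. Of 39 regulators of RAP1 and other small GTPases, 18 fell and 12 rose, with a median of -0.17. RAP1GAP, which switches off the Rap1 GTPase that activates integrins, stood at 68.4, 72.3 and 70.4 CPM at 0 h and 6.32, 11.2 and 8.62 CPM at 5 h. Its relative RAP1GAP2 stood at 56.8, 56.4 and 68.2 CPM at 0 h and 4.36, 7.16 and 5.64 CPM at 5 h. The 5 h libraries of both genes lay below all 0 h libraries. SIPA1L1, of the same class, rose from 58.9 ± 4.4 to 212 ± 6.89 CPM, and the Rap1 exchange factor RAPGEF1 from 160.0 ± 10.4 to 417 ± 25.2 CPM.

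**Figure D5:**
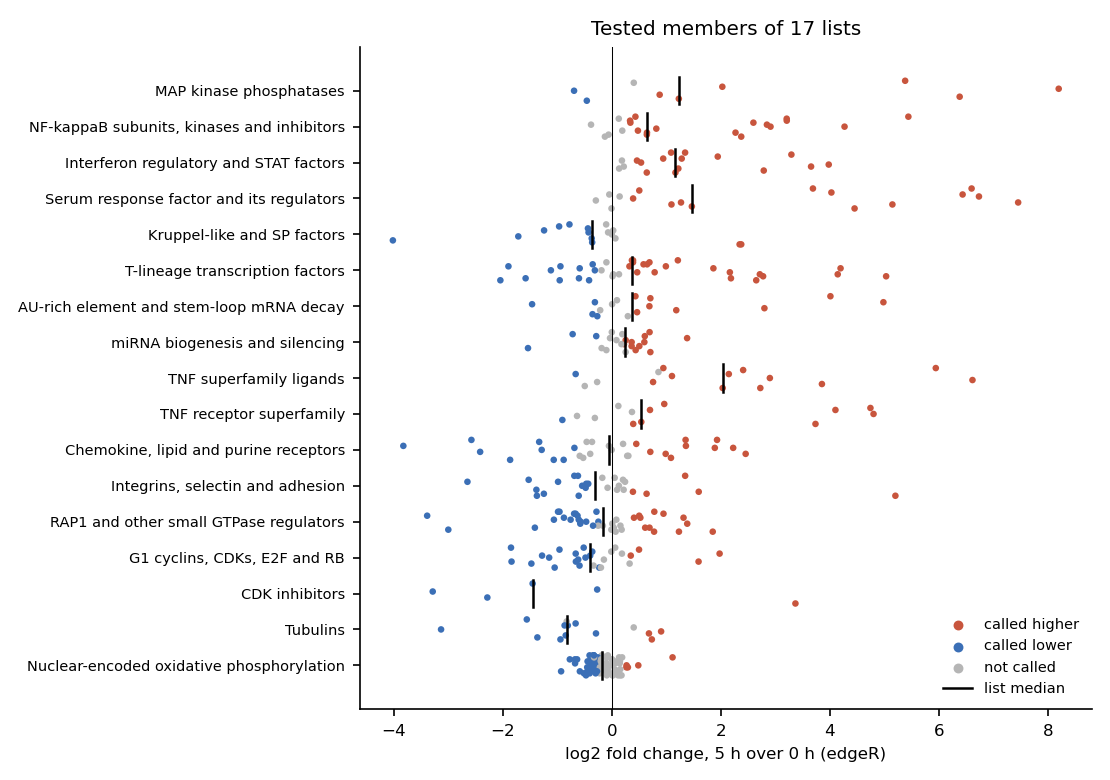
Log2 fold change (horizontal axis, edgeR) of each tested member of 17 lists, coloured by call, with a black bar at the list median. NF-κB, STAT and TNF-ligand genes lie mostly to the right of 0, tubulins, G1 genes and CDK inhibitors mostly to the left, and the T-lineage factors spread to both sides. Some TNF ligands passed the filter only through stimulated libraries.

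Genes of entry into the cell cycle mostly fell. Of 27 G1 cyclins, CDKs, E2F and RB genes, 16 fell and 4 rose, with a median of -0.40. CCND3, the D cyclin of T cells, stood at 437, 429 and 404 CPM at 0 h and 113, 120.5 and 119 CPM at 5 h and CCNE2, which drives entry into S phase, fell from 44.8 ± 3.39 to 16.1 ± 1.68 CPM. The other D cyclins rose from low levels, CCND2 from 2.32 to 7.06 CPM and CCND1 from 0.624 to 2.61 CPM. Of 5 inhibitors of cyclin-dependent kinases tested, 4 fell and 1 rose, with a median of -1.45. With only the 6 libraries compared, 4 of these genes were tested, 3 fell and the median was -0.865. CDKN2D stood at 41.4, 36.9 and 30.98 CPM at 0 h and 3.76, 4.19 and 3.13 CPM at 5 h, with every 5 h library below every 0 h library. CDKN2C fell from 59.1 ± 7.504 to 21.6 ± 1.23 CPM and CDKN1C from 2.21 ± 1.06 to 0.425 ± 0.344 CPM. CDKN1A, the inhibitor p21, rose from 1.58 ± 0.528 to 16.5 ± 1.73 CPM. CDKN1B, the inhibitor p27, fell from 64.4 ± 3.23 to 53.3 ± 6.01 CPM (-0.27 on the log2 scale). That call was lost in 6 of 16 alternatives, among them without 0 h replicate 1 (-0.26), 0 h replicate 2 (-0.26), 5 h replicate 1 (-0.19) or 5 h replicate 3 (-0.27).

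Of 35 genes of homologous recombination and the Fanconi pathway, 16 fell and 3 rose, with a median of -0.25. RMI1, which resolves recombination intermediates with the BLM helicase, fell from 63.3 ± 8.08 to 26.4 ± 1.68 CPM, FANCE from 16.2 to 6.81 CPM and XRCC3 from 54.6 to 28.4 CPM, while the helicase gene WRN rose from 81.5 ± 3.94 to 162 ± 16.2 CPM. Of 16 BCL2-family genes, 6 rose and 3 fell (7 with scaling by totals alone), with a median of -0.07. BCL2L11, the pro-apoptotic protein BIM, stood at 55.2, 57.4 and 45.3 CPM at 0 h and 456, 414 and 418 CPM at 5 h (log2 fold change 3.03 ± 0.10, edgeR adjusted p = 1.17e-15). The pro-survival gene BCL2L1 rose from 111 ± 6.45 to 309.6 ± 14.5 CPM and the pro-apoptotic BID fell from 118 ± 7.87 to 54.3 ± 4.56 CPM.

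The cytoskeleton changed most in its tubulins. Of 14 tubulin genes, 9 fell and 3 rose, with a median of -0.82. The abundant TUBB stood at 2959, 2687 and 2502 CPM at 0 h and 1506, 1522 and 1500.0 CPM at 5 h and TUBA1B fell from 2161 ± 93 to 1234 ± 28.4 CPM, while TUBD1 and TUBE1, the minor tubulins of centrioles, rose from 10.4 to 19.4 CPM and 20.9 to 34.9 CPM. Tubulin genes are near-identical in parts, so reads may be divided wrongly between them. Of 50 actin genes and regulators, 11 rose (22%, 7 genes with scaling by totals alone) and 14 fell (28%), with a median of -0.01. These shares were close to those of all genes (24.9% and 24.8%). PLEC, which links filaments, fell from 162 ± 20.7 to 47.5 ± 8.61 CPM and CORO1B from 31.99 ± 5.32 to 13.7 ± 2.95 CPM, while TMSB4X, the actin-monomer binder thymosin beta-4, rose from 1369 ± 122 to 2059 ± 103 CPM. Of 19 clock genes, 8 rose and 1 fell, with a median of 0.31. BHLHE40, a clock repressor also needed for cytokine production in T cells, stood at 3.45, 2.54 and 2.81 CPM at 0 h and 73.8, 64.6 and 69.7 CPM at 5 h, and PER1 and CRY1 rose from 44.7 to 118 CPM and 59.5 to 151 CPM, while DBP, an output gene, fell from 9.801 to 4.93 CPM.

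Metabolic and organelle genes changed by small amounts, and several of their counts depended on single libraries. Of 76 nuclear-encoded genes of oxidative phosphorylation, 29 fell and 5 rose, with a median of -0.18. The falls numbered 18 without 0 h replicate 3, 15 without 5 h replicate 3 and 11 without the 2 libraries that stood apart, while 37 fell with the G+C and length offset. The rises numbered 2 without 0 h replicate 2, with scaling by totals alone or without the 2 libraries that stood apart, and 3 without 0 h replicate 3 or without 5 h replicate 2. UQCRC2, a core subunit of complex III, rose against the list at 170.4, 160.1 and 148 CPM at 0 h and 376, 332 and 327 CPM at 5 h (log2 fold change 1.11 ± 0.089, edgeR adjusted p = 2.01e-09). NDUFB10, an accessory subunit of complex I, fell from 56.9 ± 11.3 to 35.7 ± 5.13 CPM and NDUFB7 from 22.9 ± 4.19 to 12.04 ± 3.14 CPM. Of 30 mitochondrial import genes, 7 rose and 6 fell (23.3% and 20%, close to the shares of all genes, median -0.02), and the falls numbered 3 without 0 h replicate 3, none without the 2 libraries that stood apart, 10 with the offset and 11 with scaling by totals alone. TOMM34 rose from 29.3 ± 1.19 to 58.1 ± 2.91 CPM. In purine, pyrimidine and one-carbon synthesis, 7 of 37 genes rose (3 with scaling by totals alone) and 12 fell, with a median of -0.03. The de novo purine enzyme GART rose from 149.7 to 237 CPM and MTHFD1L, of mitochondrial folate metabolism, from 58.3 to 97.9 CPM, while the S-phase enzyme TK1 fell from 20.9 to 10.6 CPM and SHMT1 from 54.95 ± 2.44 to 20.8 ± 1.04 CPM.

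Of 12 polyamine genes, 4 rose in the edgeR test (33.3%, against 24.9% of all genes) and the other 8 were not called, with a median of 0.03. SMOX, which oxidises spermine, stood at 9.33, 7.47 and 8.05 CPM at 0 h and 32.5, 45.1 and 47.9 CPM at 5 h, SAT1, which acetylates it, rose from 14.3 ± 1.53 to 44.4 ± 2 CPM and SMS, which makes it, from 82.1 ± 7.26 to 194 ± 6.401 CPM. Of 38 proteasome genes, 8 rose (21.1%, 5 genes without 5 h replicate 1) and 4 fell (10.5%, against 24.8% of all genes), with a median of 0.08. The falls numbered 1 to 2 without 0 h replicates 1, 2 or 3 or 5 h replicates 1 or 3. PSME4, an alternative proteasome activator, rose from 95.7 ± 9.56 to 197 ± 24.7 CPM. Of 43 lysosome and autophagy genes, 8 rose (18.6%) and 14 fell (32.6%, 8 genes without the 2 libraries that stood apart), with a median of -0.09. The proteases CTSD and CTSZ went opposite ways, from 232 ± 21.8 to 99.2 ± 16.8 CPM and from 27.6 ± 6.62 to 61.4 ± 4.18 CPM, and ATG14, an initiator of autophagy, rose from 28.1 to 58.2 CPM. Of 54 secretory-pathway genes, 17 rose (31.5%) and 6 fell (11.1%), with a median of 0.06. There were 11 higher without the 2 libraries that stood apart, 12 lower with the offset, 13 lower with scaling by totals alone and 3 lower without 0 h replicate 3. SEC24B and SEC24D, cargo adaptors of the COPII coat, rose from 65.9 to 123 CPM and 37.4 to 64.5 CPM. Of 26 hypoxia-response genes, 10 rose (38.5%) and 9 fell (34.6%), with a median of 0.09. The rises numbered 6 without the 2 libraries that stood apart and 5 with scaling by totals alone. The glucose transporters SLC2A3 and SLC2A1 moved in opposite directions, from 63.2 ± 1.87 to 136 ± 1.42 CPM and from 118 ± 10.04 to 39.4 ± 3.37 CPM, and EGLN1, the oxygen sensor of the pathway, fell from 22.97 ± 2.29 to 8.83 ± 0.8602 CPM.

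Of 25 genes often used as references, 5 rose (20%) and 2 fell (8%), against 24.9% and 24.8% of all genes tested. Their log2 fold changes had a median of 0.15, and no gene of the 25 changed by 2-fold. B2M, the light chain of MHC class I, rose from 1988 ± 255 to 2905 ± 170.5 CPM (log2 fold change 0.55 ± 0.10, edgeR adjusted p = 1.28e-04) and IPO8 from 80.2 ± 5.04 to 128 ± 8.09 CPM, while SNRPD3 fell from 205 ± 24.1 to 152 ± 4.72 CPM. GAPDH (2803 to 3126 CPM), ACTB (5321 to 6342 CPM), POLR2A (476 to 487 CPM) and PPIA (1039 to 968 CPM) were not called. With scaling by totals alone 6 of the 25 fell, with the G+C and length offset 4 fell, and without 0 h replicate 1 there were 8 that rose. Without 0 h replicate 3 or without 5 h replicate 2 there was 1 that fell.

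Among the 12 genes with the lowest log2 fold change (called, without overlap of the groups and with at least 20 CPM at 0 h), 6 were in none of the lists. PMEPA1, an inhibitor of TGF-β signalling, stood at 320.1, 322 and 320.3 CPM at 0 h and 44.96, 56.5 and 58.8 CPM at 5 h (log2 fold change -2.59 ± 0.11, edgeR adjusted p = 3.40e-14). BAHCC1, a reader of chromatin marks, stood at 197, 207 and 228 CPM at 0 h and 29.9, 33.8 and 37.9 CPM at 5 h. TRAM2, of the endoplasmic reticulum membrane, stood at 155, 155 and 171 CPM at 0 h and 21.8, 27.03 and 29.6 CPM at 5 h. LIME1, an adaptor of the LCK kinase, fell from 89.1 ± 11.5 to 14.9 ± 5.42 CPM and PI16, a secreted peptidase inhibitor, from 109.6 ± 14.1 to 14.9 ± 1.28 CPM. The other was HES1, a target of Notch. For each of these 6 genes every 5 h library lay below every 0 h library, as their choice required.

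Levels at 12 h are set beside the earlier values for some of these genes, without a test, because both times share the 0 h libraries. At 0 h, 5 h and 12 h, MAP2K3 stood at 34.5, 284 and 68.6 CPM, PIM3 at 46.8, 330.0 and 91.6 CPM, KLF10 at 22.3, 116 and 21.1 CPM, EGR3 at 1.51, 151 and 19.5 CPM and BHLHE40 at 2.93, 69.4 and 12.3 CPM. Each of these means was highest at 5 h. EOMES stood at 6.88, 126 and 126 CPM, BCL6 at 3.46, 61.7 and 67 CPM, ADARB1 at 75.8, 197 and 208 CPM and TNFRSF1B at 1.88, 54.3 and 63.8 CPM, with a 12 h mean near or above the 5 h mean. Among genes that fell, RASGRP2 stood at 71.9, 19.97 and 15.9 CPM and PMEPA1 at 321, 53.4 and 39.4 CPM, while ORAI2 stood at 76.9, 34.2 and 59.5 CPM and SPTBN1 at 2016, 903 and 1563 CPM, nearer to 0 h at the later time.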

How the data were processed

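Transcript abundance was measured by RNA sequencing of total RNA (RealSeq kit, per the labels' protocols). The authors deposited whole-number counts per Ensembl gene. The submitters' processing notes name cutadapt, RSEM, DESeq2 and GRCh38.p13 without roles or versions. RSEM estimates counts, so these may be rounded estimates. For the annotation release and strand setting, each not given in the sources used here, no assumption was made, so reads of overlapping, antisense or near-identical genes cannot be told apart. The authors also deposited log2 values, which equal log2 of the count over 1 factor per library, plus 1, for the 12692 genes counted in all 9 libraries. These served only in an alternative.

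Of 19569 genes, 19543 matched a symbol and 19500 GENCODE 29 (GRCh38), the source of coordinates, which are 1-based. No pair of replicates agreed within sampling noise (chi-square over degrees of freedom 2.92 to 9.21). edgeR 4.0.16 in R 4.3.3 fitted the 9 libraries with TMM normalization, filterByExpr and a coefficient per group (biological coefficient of variation 0.0887). Adjusted p-values are Benjamini-Hochberg over 12036 genes, called under 0.05. The alternatives used DESeq2 1.42.0, limma 3.58.1 and other settings of edgeR. Promoter windows hold only the 250 bases before the RefSeq start, without the bases after it.

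The genes compared and the 52 lists were chosen with earlier results of these data known. Named genes were the 12 highest and 12 lowest called log2 fold changes at 20 CPM or more without overlap, the 10 largest gains and losses in CPM, up to 3 called members at each end of a list, all members of lists under 12 tested genes, genes without a 0 h count, check and reference genes, and the 8 called genes that varied most at 5 h. Some genes under this rule and 1 list are not reported here.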

Additional observations from a re-analysis of the deposited data

How the results depend on the processing

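The number of called genes (5985) was 5993 with RLE factors, 6099 with library totals only, 6198 without a filter on low counts, 6045 with at least 1 CPM in 3 libraries, 6331 with only the 6 libraries compared, 5612 in the DESeq2 Wald test, 5820 with limma run on the authors' log2 values and 5139 to 5471 when each of the 6 libraries was left out. Chosen after seeing the data, the G+C and length offset gave 6329 calls (2848 higher and 3481 lower, 5233 shared with the 5985) and the fit without 0 h replicate 3 and 5 h replicate 1 gave 4465 (4279 shared). No shared call changed sign in any of these 16 alternatives. Labels give replicate numbers 1 to 3 in each group. Deviations of same-numbered libraries of 0 h and 5 h from their group means correlated at 0.089, -0.159 and 0.1. Differently numbered pairs of these groups ran from -0.303 to 0.296. Same-numbered libraries correlated at 0.361, 0.38 and 0.043 between 5 h and 12 h, and at -0.176, -0.2 and -0.288 between 0 h and 12 h. So few values cannot tell whether same-numbered libraries share a culture. A fit with the replicate number as a block made 5981 calls (2989 higher and 2992 lower). Of 322 named genes with a fold change, none reversed in any alternative, and 37 of the 302 called lost the call in at least 1, among them MT-CO1, PGK1, RASA3, ATAD3A, FANCF, DUSP1, CDKN1B, MZT2B, PSMB10 and PSMC5, each in 6 or more, and 32 in the fit without those 2 libraries, where fewer libraries were tested. Small list medians depended on scaling: 10 lists changed the sign of their median with totals alone and 7 with the G+C and length offset, each with a median between -0.07 and 0.15 otherwise. The share called depended on the level used to class genes. By mean CPM over the 9 libraries, which includes the response itself, 12.2% of 1673 genes under 5 CPM were called higher and 20.8% lower. From 100 to 500 CPM these shares were 38.8% and 19.3% of 2265 genes. By mean CPM at 0 h, 20.4% of 1681 genes under 5 CPM were called higher and 13.4% lower. From 100 to 500 CPM at 0 h the shares were 31.1% and 25.9% of 2174 genes. The part of depth in this was not tested.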

Other observations

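Some of the largest changes fell in runs of neighbouring genes. Runs of at least 3 adjacent tested genes, all called and at least 2-fold changed in 1 direction, numbered 16 upward and 17 downward, described here without a test. The longest held 6 genes on chromosome 1 from 89006666 to 89597864, with 5 guanylate-binding protein genes, GTPases of interferon-activated cells, and the channel gene LRRC8B. GBP5 went from 1.75 ± 0.285 to 58.4 ± 5.06 CPM, GBP1 from 51.6 ± 3.098 to 229 ± 12.2 CPM, GBP3 from 30.7 ± 3.46 to 96.1 ± 4.72 CPM, GBP4 from 1.79 ± 0.561 to 11.8 ± 3.301 CPM and LRRC8B from 54.98 ± 2.38 to 124 ± 2.298 CPM. On chromosome 12 from 9594551 to 9870136, CD69 was flanked by the lectin genes CLEC2D (27.4 to 56.2 CPM), CLEC2B (20.9 to 70.6 CPM) and KLRB1. On the same chromosome from 57055643 to 57132139, NAB2, a corepressor of EGR factors, rose from 10.3 ± 1.37 to 132 ± 20.6 CPM beside STAT6 (135 to 314 CPM) and NEMP1 (185 to 455 CPM). The lactate receptor gene HCAR1 (1.96 to 56.5 CPM) lay beside HCAR2 and HCAR3, a near-identical pair, from 122701293 to 122730843. On chromosome 15 from 49858238 to 50355408, HDC, which makes histamine, went from 0.782 ± 0.161 to 29.4 ± 0.979 CPM and the fatty-acid transporter SLC27A2 from 9.46 ± 0.279 to 48.5 ± 1.53 CPM. Reads of genes that overlap or share sequence may be divided wrongly, and the part of this in the runs was not tested.

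Among the downward runs, MYO7B, an unconventional myosin, went from 549 ± 35.4 to 133 ± 18.7 CPM on chromosome 2 (127535802 to 127681786), beside LIMS2 (28.7 to 9.41 CPM) and GPR17 (2.96 to 0.347 CPM). FBLN2, an extracellular matrix protein, went from 104 ± 13.1 to 20.9 ± 5.495 CPM on chromosome 3 (13316235 to 13638422), beside the nucleoporin gene NUP210 and the deacetylase gene HDAC11 (4.71 to 1.48 CPM). TACC3, a spindle protein, went from 115 ± 5.28 to 51.5 ± 3.06 CPM on chromosome 4 (1715952 to 1808872), between TMEM129 (21.5 to 8.86 CPM) and FGFR3 (4.72 to 1.29 CPM). The genes in both paragraphs were picked from the runs after their values were seen.

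Among called genes of at least 20 CPM at 5 h, those that varied most between the 5 h libraries were MZT2B, PPP1R12C, ARL6IP4, PDCD1, ATAD3A, CLEC11A, RRBP1 and TNFRSF4, with coefficients of variation of 28.4% to 35.1%. PDCD1, which encodes PD-1, stood at 1.79, 2.69 and 2.93 CPM at 0 h and 19.9, 39.3 and 33.2 CPM at 5 h. In all 8 genes 5 h replicate 1, the library that stood apart for G+C-rich genes, was the lowest of the 5 h libraries, and the part of base composition in this was not tested.

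Short genes were called higher least often, described here without a test. Of 948 tested genes under 5 kb, 15.4% were called higher and 30.4% lower, of 1422 genes from 100 to 200 kb 33.8% and 21.7%, and of 810 genes of 200 kb or more 28.1% and 22.6%. By transcript length, 12.4% were higher and 32% lower under 1 kb (388 genes), 33.9% and 21.8% from 6 to 8 kb (1209 genes) and 32.8% and 23.1% at 8 kb or more (1038 genes).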
